A study of Canis lupus familiaris with 18 samples.

Results

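The neuronal and synaptic genes described here are the genes of a list of 32 markers of neurons and their synapses that the count table gives by symbol. Of the 32, 27 were matched by symbol among the 29993 genes of the table. All 27 passed the filter on low counts. The other 5 (CPLX2, UNC13A, GAD2, CAMK2B and TUBB3) were not matched by symbol and were not analysed here. Counts came from RNASeq of 18 libraries of formalin-fixed high grade oligodendroglioma (HGO), a glial brain tumor, of the canine forebrain. Of these, 11 came from French bulldogs and 7 from the comparison group of 4 boxers and 3 Boston terriers. All were pet dogs with spontaneous tumors, and the tissue was resected before any trial treatment. Each library was made from scrolls of a tissue block, so all cells in the block were measured together. Dogs of the comparison group carry the numbers of their labels, so boxers 1, 3, 4 and 5 and Boston terriers 2, 6 and 7 are named.

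Neurons release transmitter from vesicles that are filled with it, docked at the active zone by a fusion machinery and set off by calcium. The genes of this machinery are used by nearly all mature neurons and by few glial cells, so they serve as markers of neuronal tissue. Cells of the oligodendroglial lineage can also use some of them. In counts from whole tissue, fewer neurons and less RNA per neuron cannot be told apart.

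Libraries held between 8212452 and 13169880 counts on genes. French bulldog 6 went against its tissue label. The summed level of 10 oligodendrocyte lineage markers was 45.9 CPM in it (counts scaled to a common library total after TMM normalization), against 2569 to 13892 in the other French bulldogs and 4920 to 8666 in the comparison group, and OLIG2 had 0 counts. The summed level of 11 macrophage and microglia markers was 6012 CPM in it, against 62.5 to 357 and 84.6 to 197 in the same groups. Of these markers, 9 were higher in it than in any other library, led by the macrophage receptor CD163 at 2897 CPM. The microglia gene TMEM119 was among the 9, CX3CR1 was lowest in it, at 2.50 CPM against 11.6 to 55.9, and P2RY12 lay within the range of the others, at 6.87 CPM against 4.22 to 27.5. Log2 fold changes of the 27 genes are therefore given with and without this library, singly or by range. The lowest, median and highest levels of single genes in French bulldogs include it. French bulldogs 2 and 8 share a case number. Over all genes kept, their correlation of log2 CPM was 0.981, the highest of the 153 pairs of libraries, but their counts differed by more than sampling noise (chi-square of 9.41 per degree of freedom over 15000 genes). Their library names differ only in a letter, whose meaning the labels do not give, and the running number. The study lists both with the same age, sex and tumor site. They may thus be 1 dog. They were counted as 2 libraries unless stated, so an n of 11 or 18 may hold 1 dog fewer. The running numbers that end the library names restart for boxer 5 and Boston terriers 6 and 7, and do not overlap among the other libraries. The labels do not say what these numbers mark.

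The level of the neuronal genes differed widely between tumors. The 27 genes together held between 0.0161% and 0.532% of the counts of a library. Their summed level was 4828 CPM in French bulldog 9 and 4525 in French bulldog 7. It was 3953 in boxer 4, 3500 in Boston terrier 6 and 2988 in French bulldog 10. At the other end were French bulldog 6 with 199.9 CPM, French bulldog 11 with 501 and French bulldog 2 with 567. The highest level thus was 24.1 times the lowest, and 9.64 times the lowest once French bulldog 6 was left out. Both ends held French bulldogs, and the 7 dogs of the comparison group lay between 706 and 3953.

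Most single genes differed more between tumors than their sum did. The SD of log2 CPM over the 17 libraries other than French bulldog 6 had a median of 1.37 over the 27 genes and 0.54 over all 16403 genes kept in these libraries, and every one of the 27 lay above that second value. It ranged from 0.63 for SV2A, a vesicle glycoprotein, to 2.77 for CAMK2A, the alpha subunit of the calcium/calmodulin kinase of excitatory synapses. CAMK2A had 1.32 CPM (16 counts) in Boston terrier 7 and 571 in French bulldog 7, a ratio of 431. SV2A differed by a ratio of 7.54 over the same 17 libraries, from 35.9 CPM in French bulldog 11 to 271 in boxer 3. An SD over 2 log2 units was found for 7 of the 27 genes, SNAP25, SLC17A7, CAMK2A, NRGN, VSNL1, NEFL and NEFM.

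**Figure D1:**
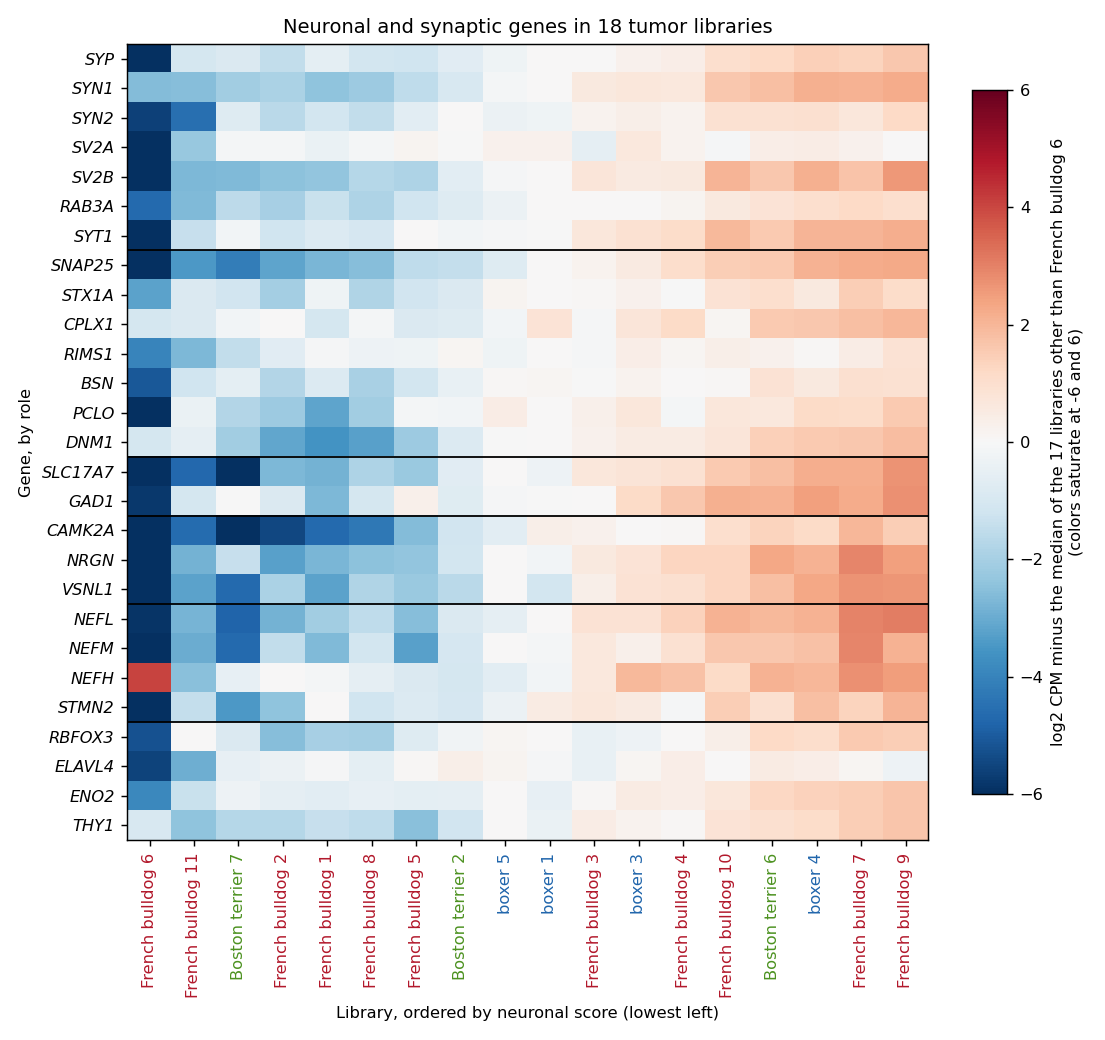
Each row is 1 of the 27 genes, ordered by role, and each column 1 of the 18 libraries, ordered by neuronal score. Color gives log2 CPM minus the gene's median over the 17 libraries other than French bulldog 6. Most genes turn from blue to red along the same order of libraries, and NEFH is high in French bulldog 6, 4.06 log2 units above its median. Apart from French bulldogs 6 and 11, SV2A and ELAVL4 stay pale.

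The genes rose and fell together from tumor to tumor. Among the 17 libraries without French bulldog 6, Spearman's rho was above 0 for all 351 pairs of the 27 genes, with a median of 0.87 and a range from 0.33 to 0.995, and it was over 0.8 in 252 pairs. For SNAP25, the membrane protein of the fusion complex, rho with the other 26 genes had a median of 0.93, whereas its median over all 16376 other genes kept was -0.04. These values describe 17 libraries that share a normalization and include a pair with the same case number. The pair with the highest value was SLC17A7 and VSNL1, and the pair with the lowest was CPLX1 and ELAVL4.

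Each gene was also set against the mean z-score of the other 26. The 5 genes that followed the others most closely were RAB3A, SNAP25, SYN1, SLC17A7 and NEFL, with rho from 0.97 to 0.99, and 18 of the 27 had a rho over 0.9. The 5 that followed least were ELAVL4 with 0.59, SV2A with 0.61, CPLX1 with 0.78, RBFOX3 with 0.78 and NEFH with 0.84. ELAVL4 encodes a neuronal RNA-binding protein that appears as neurons leave the cell cycle. Its level of 23.6 CPM at the median of the 17 libraries ran from 2.97 to 33.4.

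A neuronal score was taken as the average z-score of the 27 genes in a library. It put French bulldog 9 highest at 1.12, followed by French bulldog 7 at 1.08, boxer 4 at 0.962 and Boston terrier 6 at 0.898. The lowest were French bulldog 6 at -2.30, French bulldog 11 at -0.939 and Boston terrier 7 at -0.727. French bulldogs averaged -0.166 ± 1.02 (SD, n = 11), and the comparison dogs 0.261 ± 0.593 (SD, n = 7). The difference of -0.427 was smaller than the SD between French bulldogs. With z-scores taken anew, it was -0.279 without French bulldog 6 and -0.373 with French bulldogs 2 and 8 summed. By breed, boxers ranged from 0.148 to 0.962 and Boston terriers from -0.727 to 0.898. The score of 5 of the 11 French bulldogs exceeded the average of the comparison dogs, and the ranges overlapped. French bulldogs 2 and 8 had close scores of -0.701 and -0.583, and over the 27 genes the median size of their difference was 0.23 log2 units, against a median of 1.60 over all pairs of libraries.

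**Figure D2:**
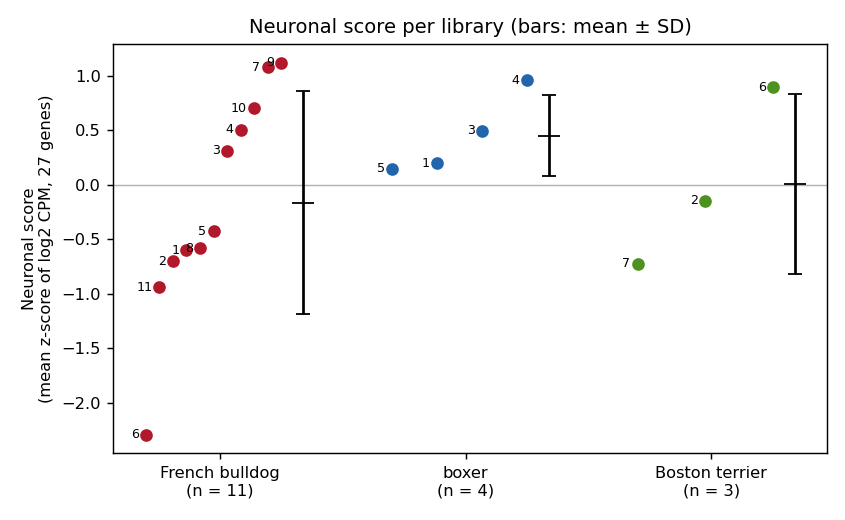
The vertical axis is the neuronal score and each point is 1 library, labelled with its number, for 11 French bulldogs, 4 boxers and 3 Boston terriers. Bars give the mean and SD of each breed. French bulldogs held both the highest score of 1.12 and the lowest of -2.30.

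French bulldogs were compared with the comparison group gene by gene, which is the comparison the study was built for. In edgeR's quasi-likelihood test over 16495 genes, none of the 27 neuronal genes had an adjusted p-value under 0.05, against 0.00606% of all genes tested. None had an unadjusted p-value under 0.05, against 10.6% of all genes tested (7.02% higher and 3.55% lower in French bulldogs), and DESeq2 gave none with an adjusted p-value under 0.05, against 0.278%. The smallest unadjusted p-value was 0.231, and adjusted p-values ran from 0.666 to 0.996. The groups overlapped in all 27 genes, while they did not overlap in 0.0546% of all genes tested. Standard errors (SE) of the log2 fold changes ran from 0.44 to 1.09, with a median of 0.71, against 0.32 over all genes tested, so that differences of these genes between groups were less precisely measured than those of most genes.

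The fitted log2 fold change was below 0 for 23 of the 27 genes, with a median of -0.13, against 46.3% of all genes tested, with a median of 0.04. This count changed with single libraries of both groups. Without French bulldog 6, 12 of the 27 were below 0, against 44.6% of 16403 genes, and the median was 0.03. The number below 0 was 10 without boxer 4, 12 without Boston terrier 6, 14 without French bulldog 11, 15 without French bulldog 8 and 15 with French bulldogs 2 and 8 summed. It was 25 without French bulldog 7, 24 without French bulldog 9, 24 against boxers alone and 26 with limma-voom. Since the genes varied together over the dogs, their 27 directions are not independent. Without French bulldog 6 the smallest unadjusted p-value was 0.0886, again with none under 0.05, against 10.8% of all genes tested. No gene of the 27 passed the adjusted threshold in these 17 libraries, against 0.0183% of all genes tested, or separated the groups, against 0.061%. By running number, the median was -0.24 against boxers 1, 3 and 4 and Boston terrier 2, and -0.01 against boxer 5 and Boston terriers 6 and 7.

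**Figure D3:**
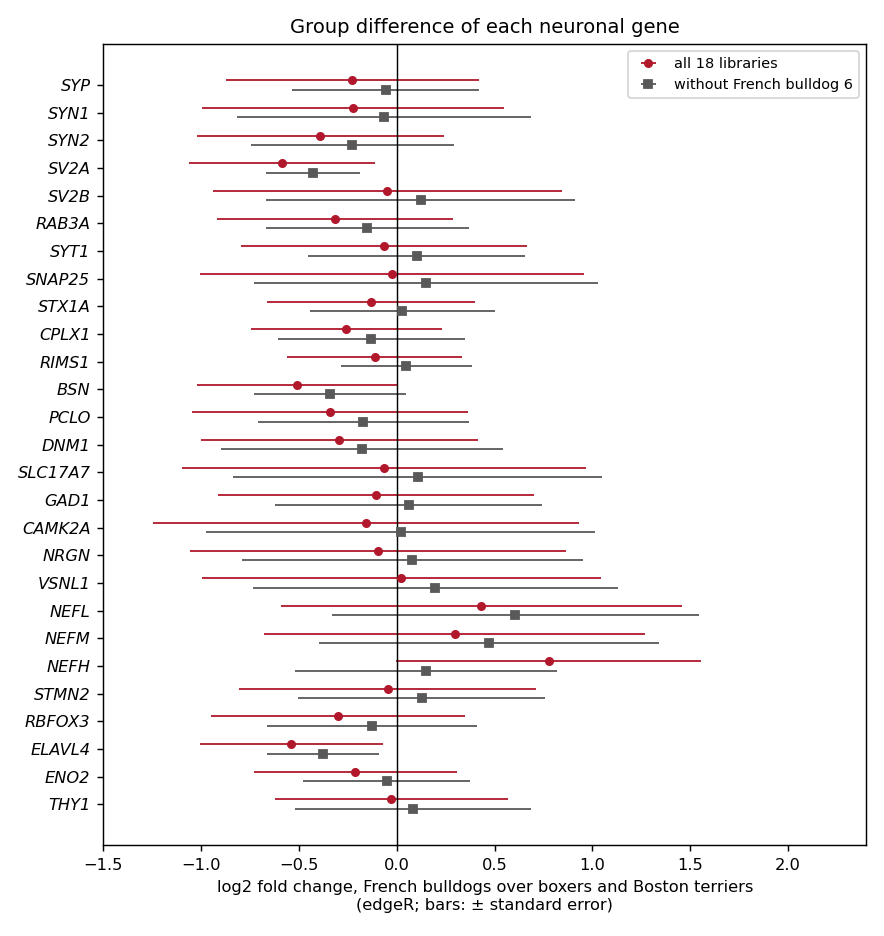
The horizontal axis is the log2 fold change of French bulldogs over boxers and Boston terriers, with bars for the standard error, for each of the 27 genes. Circles use all 18 libraries and squares leave out French bulldog 6. The 27 circles lie between -0.59 and 0.78, and no gene passed the test in either fit.

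The first group by role holds 7 proteins of the synaptic vesicle. All 7 had a fitted log2 fold change below 0 with all libraries, against 46.3% of all genes tested, and 5 without French bulldog 6, against 44.6%. None passed the test. SV2A (ENSCAFG00000011588), the vesicle glycoprotein that binds the drug levetiracetam, had the smallest p-value of all 27 genes. Its lowest, median and highest levels were 1.77, 162 and 206 CPM in French bulldogs and 161, 211 and 271 in the comparison group. French bulldogs thus lay lower in the range, but they overlapped the comparison group, with a log2 fold change of -0.59 (SE 0.47, edgeR adjusted p = 0.666). Without French bulldog 6 it was -0.43 (SE 0.24, edgeR adjusted p = 0.533).

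SV2B (ENSCAFG00000011274), its relative with a more restricted use among neurons, varied most in the group over all 18 libraries. It had 0.208, 11.6 and 236 CPM in French bulldogs and 5.96, 38.6 and 168 in the comparison group. The lowest and the highest library were both French bulldogs. Its log2 fold change was -0.05 (SE 0.89, edgeR adjusted p = 0.993). Without French bulldog 6 it was 0.12 (SE 0.79, edgeR adjusted p = 0.974). The others were SYP, SYN1, SYN2, RAB3A and SYT1. These are the membrane protein synaptophysin, the vesicle-coating synapsins 1 and 2, the small GTPase that brings vesicles to the membrane and the calcium sensor of release. Their log2 fold changes ran from -0.39 for SYN2 to -0.06 for SYT1, and without French bulldog 6 from -0.23 to 0.10 for the same genes.

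Of the 9 genes of the fusion machinery and active zone, 7 were matched. All 7 had a log2 fold change below 0, against 46.3% of all genes tested, and 4 without French bulldog 6, near the 44.6% of all genes tested. None passed the test. BSN (ENSCAFG00000011477) encodes the giant scaffold bassoon of the active zone. Its lowest, median and highest levels were 6.14, 121 and 413 CPM in French bulldogs and 141, 236 and 395 in the comparison group. French bulldogs spanned the whole range of the comparison group, and the log2 fold change was -0.51 (SE 0.51, edgeR adjusted p = 0.745). Without French bulldog 6 it was -0.34 (SE 0.39, edgeR adjusted p = 0.790).

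SNAP25 (ENSCAFG00000005662) had 0.312, 29.2 and 414 CPM in French bulldogs and 4.55, 84.9 and 363 in the comparison group. Means were 127 ± 159 (SD, n = 11) and 129 ± 131 (SD, n = 7), so that the SD of each group was about as large as its mean. The log2 fold change was -0.02 (SE 0.98, edgeR adjusted p = 0.996). Without French bulldog 6 it was 0.15 (SE 0.88, edgeR adjusted p = 0.970). By dog, SNAP25 counts were 5368 in French bulldog 9, 4492 in French bulldog 7 and 3809 in boxer 4, and 55 in Boston terrier 7, 77 in French bulldog 11 and 3 in French bulldog 6. The other 5 were the syntaxin STX1A, the fusion clamp CPLX1, the scaffolds RIMS1 and PCLO, and DNM1, the dynamin that pinches off vesicles for reuse. Their log2 fold changes ran from -0.34 for PCLO to -0.11 for RIMS1. Without French bulldog 6 they ran from -0.18 for DNM1 to 0.05 for RIMS1, and STX1A was at 0.03.

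Transmitter genes tell excitatory from inhibitory neurons. SLC17A7 (ENSCAFG00000003665) encodes the transporter that fills vesicles with glutamate in cortical excitatory neurons. It had 0.104, 9.16 and 217 CPM in French bulldogs and 0.248, 33.1 and 153 in the comparison group. GAD1 (ENSCAFG00000012560), which makes the inhibitory transmitter GABA, had 0, 10.3 and 69.6 CPM in French bulldogs and 6.21, 10.1 and 58.1 in the comparison group. The medians of GAD1 nearly coincided, those of SLC17A7 did not, and both genes overlapped between groups. Their log2 fold changes were -0.07 (SE 1.03, edgeR adjusted p = 0.991) for SLC17A7 and -0.10 (SE 0.81, edgeR adjusted p = 0.979) for GAD1. Without French bulldog 6 they were 0.11 (SE 0.94, edgeR adjusted p = 0.982) and 0.06 (SE 0.68, edgeR adjusted p = 0.985).

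In Boston terrier 7 the excitatory marker SLC17A7 was far lower and the inhibitory marker GAD1 close to the other dogs. Relative to the median of the other libraries, French bulldog 6 left aside, its log2 CPM was -6.59 for both SLC17A7, with 3 counts, and CAMK2A. It was -0.18 for GAD1, with 122 counts, and -0.21 for SV2A. Other libraries low in the score differed in this, with -3.16 for SLC17A7 and -2.87 for GAD1 in French bulldog 1 and -5.04 and -1.21 in French bulldog 11. SLC32A1 and VIP, also genes of inhibitory neurons, were at their lowest in Boston terrier 7 among the 17 libraries other than French bulldog 6. Their level there was 0.0828 CPM each, against at most 10.7 and 7.73 CPM. GAD1 alone thus does not stand for these neurons.

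Of the 4 genes of calcium signaling, 3 were matched, CAMK2A, NRGN and VSNL1. NRGN encodes neurogranin, a calmodulin-binding protein of dendritic spines, and VSNL1 a neuronal calcium sensor. CAMK2A (ENSCAFG00000018163) had 0.208, 23.0 and 571 CPM in French bulldogs and 1.32, 141 and 357 in the comparison group. The median was lower in French bulldogs, yet the highest level was also theirs, and the log2 fold change was -0.16 (SE 1.09, edgeR adjusted p = 0.977). Log2 fold changes were -0.10 for NRGN and 0.02 for VSNL1. Without French bulldog 6 the log2 fold changes were 0.02 for CAMK2A, 0.08 for NRGN and 0.20 for VSNL1.

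Neurofilaments stiffen the axon, and their genes behaved differently from one another in French bulldog 6. NEFL (ENSCAFG00000009014), the light chain, had 0.104, 5.70 and 141 CPM in French bulldogs and 0.414, 16.8 and 72.5 in the comparison group. NEFH (ENSCAFG00000012243), the heavy chain, had 0.793, 8.59 and 94.3 CPM in French bulldogs and 2.54, 4.91 and 23.5 in the comparison group. The highest NEFH level was that of French bulldog 6, with 906 counts, where NEFL had 1 count and NEFM, the medium chain, 0.

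The NEFH log2 fold change of 0.78 (SE 0.78, edgeR adjusted p = 0.743) was the largest of the 27 genes, and it was 0.15 without French bulldog 6. NEFL was at 0.43 (SE 1.02, edgeR adjusted p = 0.916) with all libraries and 0.61 without French bulldog 6. NEFM and STMN2, a microtubule regulator of growing axons, were at 0.30 and -0.05, and at 0.47 and 0.13 without French bulldog 6.

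The last group holds RBFOX3 and ELAVL4, which bind RNA in neuronal nuclei and cytoplasm, the neuronal enolase ENO2 and the surface glycoprotein THY1, which fibroblasts and lymphocytes can also carry. ELAVL4 (ENSCAFG00000003927) had 0.312, 18.8 and 30.7 CPM in French bulldogs and 16.5, 26.6 and 33.4 in the comparison group. French bulldogs reached lower and not as high, with a log2 fold change of -0.54 (SE 0.47, edgeR adjusted p = 0.698), and the groups overlapped. RBFOX3 (ENSCAFG00000005547), known as NeuN, had 0.104, 7.91 and 31.9 CPM in French bulldogs and 5.88, 10.7 and 24.7 in the comparison group. Its log2 fold change was -0.30 (SE 0.65, edgeR adjusted p = 0.908), and those of ENO2 and THY1 were -0.21 and -0.03. Without French bulldog 6 these were -0.13, -0.05 and 0.08, and that of ELAVL4 was -0.38.

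French bulldog 6 lacked most of these genes but not all. In it, 14 of the 27 had at most 3 counts, the level taken as the smallest that could be shown at this depth, and 3 of them (GAD1, NEFM and VSNL1) had 0. It had the lowest level of 23 genes. Besides NEFH, with 94.3 CPM against 0.793 to 37.2 in the other 17 libraries, the exceptions were DNM1 with 44.6 CPM, above 5 of the 17, THY1 with 27.6 CPM, above 7 of the 17, and CPLX1 with 4.69 CPM, above 1. Of 59 other neuronal genes, 2 had a higher level in French bulldog 6 than in any of the other 17 libraries, both named after their values were seen. They were CPLX3, with 9.16 CPM against at most 4.16, and SYNJ1, a phosphatase of vesicle recycling, with 294 CPM against at most 269.

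French bulldog 11 was uneven in another way. Relative to the median of the other libraries, its log2 CPM was -5.04 for SLC17A7, -4.66 for CAMK2A and -4.62 for SYN2. It was -0.55 for PCLO, another giant scaffold of the active zone, -0.64 for DNM1 and 0.12 for RBFOX3. SYN2 had 34 counts in it and RBFOX3 109, whereas French bulldog 2 had 233 and 15. The ratio of one neuronal gene to another was thus not constant over the tumors.

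Genes outside the list were examined to see which moved with the score. A list of 66 other neuronal genes was used, of which 59 were matched and tested. In the 17 libraries without French bulldog 6, rho with the score was above 0 for 55 of the 59, with a median of 0.88, against a median of -0.03 over all 16376 other genes kept. None of the 59 had an unadjusted p-value under 0.05 between the groups, against 10.6% of all genes tested. The log2 fold change was below 0 for 39, against 46.3% of all genes tested, and for 26 without French bulldog 6, against 44.6%. Its median was -0.10, or 0.05 without French bulldog 6. Among those above 0, the smallest p-values were those of the phosphatase subunit PPP3CB at 0.30 (edgeR p = 0.122) and the complexin CPLX3 at 0.65, which was 0.09 without French bulldog 6. The 3 with the smallest p-values below 0 were beta-synuclein (SNCB) at -0.73 (edgeR p = 0.282), the active zone scaffold RIMS2 at -0.47 and the adhesion protein NLGN1 at -0.50.

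Genes of immature neurons did not vary with the score in the same way. Of 18 on the list, 10 were matched and 8 tested, and their rho had a median of -0.06 and ran from -0.39 to 0.74. STMN1, a microtubule regulator of dividing and immature cells, averaged 135 ± 29.9 CPM over the French bulldogs (SD, n = 11) and 97.2 ± 23.1 over the comparison dogs (SD, n = 7). Its log2 fold change of 0.47 (SE 0.18, edgeR p = 0.0148, adjusted p = 0.433) did not pass the adjusted threshold, and it was the only one of the 8 with an unadjusted p-value under 0.05, a share near the 10.6% of all genes tested. DLX6 and DCX followed at 0.42 and 0.38, and the lowest p-values below 0 were those of DLX5 at -1.02, DLX1 at -0.52 and SOX4 at -0.31.

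Markers of other cells differed in how they moved with the score. All 8 astrocyte markers tested had a rho above 0, with a median of 0.71, highest for the gap junction gene GJB6 at 0.91 and lowest for GFAP at 0.27. For the 10 markers of myelinating oligodendrocytes, 9 were above 0, with a median of 0.33. Medians were 0.02 over 11 macrophage and microglia markers, 0.005 over 7 endothelial markers and -0.20 over 10 oligodendrocyte lineage markers. All 8 proliferation genes were below 0, from -0.66 for MKI67 to -0.40 for CCNA2, with a median of -0.50. These are descriptions over 17 libraries without a test.

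**Figure D4:**
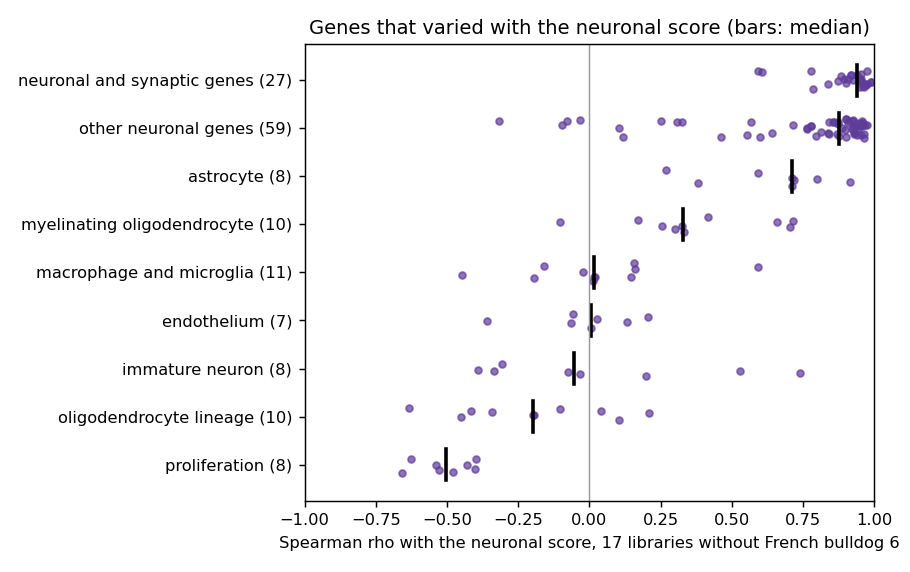
The horizontal axis is Spearman's rho of a gene with the neuronal score over 17 libraries, and each point is 1 gene. For the 27 genes of the score, rho is with the mean of the other 26. Bars mark the median of each list. Neuronal genes cluster near 1, astrocyte markers have a median of 0.71, and all 8 proliferation genes lie below 0.

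The levels of these lists were as follows. The summed level of the 8 astrocyte markers ran from 541 to 5758 CPM in French bulldogs other than 6, from 1037 to 3688 in the comparison group, and was 50.5 in French bulldog 6, where S100B had 0 counts. That of the 10 myelin markers ran from 451 to 8819, from 993 to 1870 and was 136, with OPALIN at 0 counts in French bulldog 6. That of the 8 proliferation genes ran from 74.6 to 1107, from 99.9 to 411 and was 1089. The part of any of these cells in the level of the neuronal genes was not tested.

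For a test across dogs, SNAP25 was set against 1 gene of each of 5 kinds of cell or state, in the 17 libraries without French bulldog 6. MKI67, the proliferation antigen Ki-67, was lower where SNAP25 was higher. Pearson's r was -0.608 (permutation p = 0.0099, adjusted p = 0.0495 over the 5 genes) and Spearman's rho was -0.637 (permutation p = 0.00721, adjusted p = 0.0360). The p-values are two-sided, from 100000 permutations, and exact for the comparison dogs. Without the 2 libraries farthest from the median of SNAP25, which were French bulldog 11 and Boston terrier 7, r was -0.766.

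The relation had the same sign within each group of dogs. Among the 10 French bulldogs r was -0.584 (permutation p = 0.0803) and rho -0.527 (permutation p = 0.123), and among the 7 comparison dogs r was -0.748 (exact permutation p = 0.0419) and rho -0.750 (exact permutation p = 0.0663). Without the 2 dogs of each group farthest from its median, r was -0.241 among French bulldogs, where these were French bulldogs 7 and 9, and -0.863 among comparison dogs. Neither group passed 0.05 after adjustment over the 5 genes, with adjusted p-values of r of 0.401 and 0.105 from these permutation tests. The 2 runs of library numbers in the comparison group, which hold 4 and 3 dogs, were too small to be taken alone. The pooled value lay close to the threshold. With French bulldogs 2 and 8 summed as 1 dog, r was -0.547 (permutation test, adjusted p = 0.136), and leaving out 1 library at a time gave r from -0.746 to -0.547 with an adjusted p-value over 0.05 in 15 of 17 cases. For rho, the adjusted p-value of the permutation test was 0.0607 with French bulldogs 2 and 8 summed, and it was under 0.05 in 8 of 17 cases when 1 library was left out, with rho from -0.779 to -0.565.

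For the other 4 genes no relation passed the test. Pearson's r was 0.352 for the myelin gene MBP (permutation p = 0.166), 0.285 for the astrocyte filament GFAP (permutation p = 0.266), -0.296 for the macrophage gene AIF1 (permutation p = 0.245) and -0.370 for OLIG2 (permutation p = 0.147), each with an adjusted p-value of 0.266. Spearman's rho was 0.275, 0.248, -0.235 and -0.223, with permutation p-values of 0.286, 0.337, 0.363 and 0.389 and adjusted values of 0.389 each. Without the same 2 libraries r was 0.489, 0.353, 0.00771 and -0.224. Within French bulldogs r was 0.375, 0.254, -0.334 and -0.268, and within the comparison group it was 0.405, 0.377, -0.211 and -0.815, the last with an exact permutation p = 0.0264 (adjusted 0.105).

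**Figure D5:**
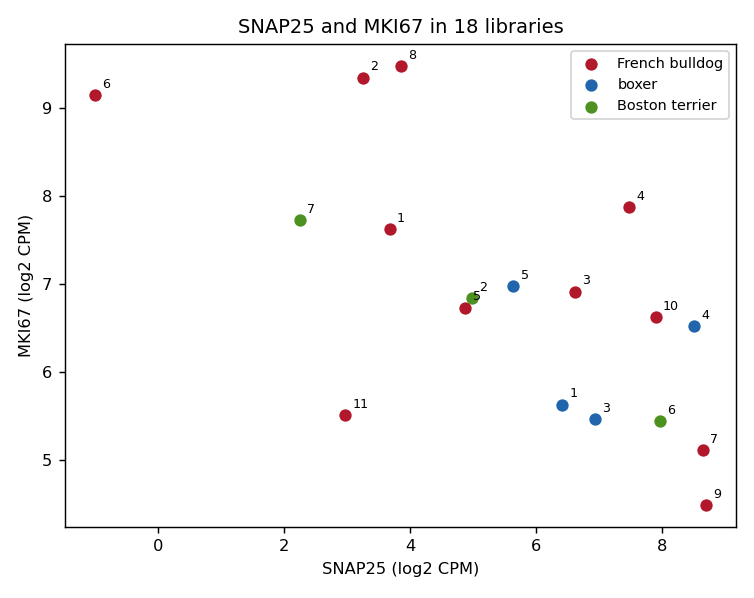
The horizontal axis is SNAP25 and the vertical axis MKI67, both in log2 CPM, and each point is 1 of the 18 libraries, colored by breed and labelled with its number. MKI67 falls from upper left to lower right. French bulldog 11 lies low in both, and French bulldog 6 lies far to the left.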

How the data were processed

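RNA from formalin-fixed, paraffin-embedded tumor scrolls was made into 18 ribosome-depleted total RNA libraries. The authors trimmed the reads with Trimmomatic 0.33, aligned the reads with HISAT2 2.1.0, per the submitters' processing notes, and used featureCounts for gene counts. The authors deposited raw counts per gene, without normalization, and these were used as deposited. The library kit keeps strand. Whether the counting used it, and how it treated reads with several matches, is not given in the sources used here, so overlapping or antisense genes may share reads.

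Groups were taken from the sample labels. Age, sex and tumor location are not in the labels and entered no test. The study's listing of them is mentioned for French bulldogs 2 and 8 alone. The gene list, the role lists and the marker lists were chosen with earlier results of these data known. Counts were normalized by TMM, filtered by filterByExpr and tested by edgeR's quasi-likelihood test (edgeR 4.0.16, R 4.3.3; robust, no covariate, Benjamini-Hochberg over all genes kept). Log2 CPM used a prior count of 2. The standard error is the size of the log2 fold change over the square root of F. Scores of single libraries use z-scores over the 18 libraries. In fits, score differences and correlations that leave out a library or sum a pair, normalization and z-scores were taken anew over the remaining libraries, while CPM levels of single libraries are those of the 18. Within each role, the genes with full values were the one with the smallest p-value and the one with the largest SD of log2 CPM. From the lists of other and of immature neuronal genes, the 3 smallest p-values in each direction are named, apart from genes not reported here, and the 5 highest and 5 lowest correlations name the genes that follow or depart from the rest. Other genes named were chosen after their values were seen. Alternatives were DESeq2 1.42.0, limma 3.58.1 (voom), other normalizations, no filter, other sets of libraries and a replicate block. The edgeR p-values set a difference between groups against the spread between these libraries, and the permutation p-values set a correlation against shuffled values. Limits from 3 counts cover counting error only. Fitting code was tested on simulated data. Figures were made with Python 3.11.15 and matplotlib 3.10.9.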

Additional observations from a re-analysis of the deposited data

Results flagged for a closer look

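The 27 genes and the score were searched for a library that stood far from the rest of the 7 comparison dogs on log2 CPM, by a gap test that flags about 1 in 20 groups by chance. Of 28 values examined, 4 were flagged, all for a low level in Boston terrier 7: SLC17A7 at -1.19, CAMK2A at 0.60, NEFL at -0.73 and RIMS1 at 4.91 log2 CPM. The gap to the next dog was 0.659, 0.684, 0.573 and 0.643 of the whole range, against a limit of 0.568. SLC17A7 had 3 counts there, NEFL 5, CAMK2A 16 and RIMS1 361. The 4 genes vary together over the dogs, so the flags are not independent, and the score itself was not flagged.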

How the results depend on the processing

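None of the 27 genes had an adjusted p-value under 0.05, nor an unadjusted one, in any of 29 alternative fits, where the smallest adjusted p-value was 0.533. Leaving out each library in turn gave a median log2 fold change of the 27 genes from -0.48 to 0.13 and a score difference from -0.590 to -0.279. The median was above 0 without French bulldog 6 (0.03), boxer 4 (0.13) or Boston terrier 6 (0.06), and against Boston terriers alone (0.12), and it was -0.29 against boxers alone. With limma-voom, which averages log levels, it was -0.87, and with the replicate block over numbers 1 to 7 (14 libraries) it was -0.99 with 0 genes called, against -0.43 in the same 14 libraries without the block. The numbers pair nothing in the labels: deviations of same-numbered dogs correlated above 0.1 in 3 of 7 pairs, and 0 of 7 dogs correlated best with its own number.

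With French bulldog 6 included, Pearson's r of SNAP25 was 0.606 with MBP, 0.636 with GFAP, -0.646 with AIF1 (permutation tests, adjusted p = 0.0109 for each) and 0.563 with OLIG2, whose sign turned, and -0.672 with MKI67. Spearman's rho was 0.389, 0.350 and -0.356 for MBP, GFAP and AIF1 (permutation tests, adjusted p = 0.191 for each), and r was 0.352, 0.170 and -0.232 without French bulldog 6 and Boston terrier 7, the 2 farthest libraries. With French bulldogs 2 and 8 summed, r with MKI67 was -0.547. Leaving out 1 of the 17 libraries gave r from 0.190 to 0.460 with MBP, 0.156 to 0.448 with GFAP, -0.389 to -0.146 with AIF1, -0.746 to -0.547 with MKI67 and -0.488 to -0.188 with OLIG2.

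Small log2 fold changes turned sign. Without French bulldog 6 they were 0.12 for SV2B, 0.15 for SNAP25, 0.06 for GAD1, 0.11 for SLC17A7 and 0.02 for CAMK2A. With French bulldogs 2 and 8 summed they were 0.071 for SV2B, 0.10 for SNAP25, 0.00013 for GAD1 and 0.054 for SLC17A7. Against comparison dogs 5, 6 and 7 alone, they were 0.25 for SV2B, 0.38 for SNAP25, 0.049 for GAD1, 0.22 for SLC17A7 and 0.020 for CAMK2A, and against Boston terriers alone 0.37, 0.47, 0.13, 0.35 and 0.12 in the same order. SNAP25 was at 0.0079 with DESeq2 size factors, 0.014 with no filter and 0.0083 in DESeq2. NEFL was at -0.37 in limma-voom and -1.36 with the replicate block. Leaving out 1 library at a time gave SV2B -0.52 to 0.45, SNAP25 -0.39 to 0.54, GAD1 -0.47 to 0.36, SLC17A7 -0.57 to 0.44 and CAMK2A -0.65 to 0.16, and RBFOX3, with no turn, -0.61 to -0.08. The causes were not tested.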

Other observations

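Genes with a symbol, other than the 27, were ranked by their Spearman correlation with the neuronal score over the 17 libraries without French bulldog 6, a ranking made after the values were seen and given without a test. Of all 16376 other genes kept, with or without a symbol, 356 had a rho over 0.9. The highest was FBXL16 at 0.99, an F-box gene with 0 counts in French bulldog 6 and up to 2564 elsewhere. Next came NDRG4, NEURL1, GALNT17 and RTN4RL1, a relative of the Nogo receptor. The vesicle priming factor CADPS, the potassium channel KCNH7 and the calcium sensor DOC2A were also among the 15 highest, each with 0 counts in French bulldog 6.

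At the other end, the lowest rho of a gene with a symbol was -0.94 for HNRNPH1, a splicing regulator. PTBP1, the polypyrimidine tract protein that represses neuronal splicing in cells that are not neurons, was at -0.88, and the helicase DDX46, the replication factor RFC1, the transcription factor SP1 and ODC1, the first enzyme of polyamine synthesis, were at -0.90, -0.89, -0.88 and -0.88.

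Among the other neuronal genes, rho was below 0 for the microtubule protein MAPT at -0.10 and the synapsin SYN3 at -0.03. RIMS2 and NLGN1 were at 0.12 and 0.11.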
